A study of Mus musculus with 6 samples.

Results

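The genes examined were 10 of the MHC class I presentation pathway in mouse Tregs, regulatory T cells, which restrain immune responses and are defined by Foxp3. They were taken by name from a table of 55840 genes: B2m, H2-K1, H2-D1, Tap1, Tap2, Tapbp, Psmb8, Psmb9, Nlrc5 and Erap1. All 10 were present once and all 10 passed the filter on low counts, as did 14919 genes in all. The series compared WT Tregs with Tregs labelled Exon2KO, from spleen and lymph nodes; the series title writes their allele as Foxp3∆2. Each genotype had 3 libraries, which the titles call biological replicates. They are named here by genotype and by the number in the column names (2, 6 or 20), and nothing in the labels says what that number stands for. No age, sex, strain, sorting marker or treatment is given in the sources used here, and whether the cells of a library were pooled over animals is not stated.

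MHC class I molecules show short peptides from inside the cell to CD8 T cells, and almost all nucleated cells carry them. The proteasome cuts proteins into peptides, the TAP transporter moves these into the endoplasmic reticulum, an aminopeptidase trims them there, and a loading complex places them on a heavy chain bound to beta-2 microglobulin. Interferons raise transcription of most genes on this route, and NLRC5 is the factor that switches on class I promoters together with proteins bound at their conserved X and Y boxes. Lymphocytes keep the route highly active without infection.

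Of the 10 genes, 7 lie on chromosome 17 within the stretch from 33915899 to 35267499 (GRCm38), which is a portion of the mouse major histocompatibility complex. The others are B2m on chromosome 2 (122147686 to 122153083), Nlrc5 on chromosome 8 (94434356 to 94527272) and Erap1 on chromosome 13 (74639568 to 74693201). Promoter windows of 300 bases, 250 before and 50 after each start, were given by RefSeq (GRCm38.p6) for 8 of the 10; Tap2 and Nlrc5 had none. The 5 windows printed here are those of the class I molecule itself (B2m, H2-K1, H2-D1) and of the divergent pair Tap1 and Psmb9. Capitals mark CCAAT (read in either direction, the core of the Y box), TGACG (the core of a cyclic AMP response element, part of the X box), the core of the interferon-stimulated response element, GAANNGAAA (a shorter interferon response core), and the class I kappaB site.
B2m (chr2:122147437-122147736, plus strand): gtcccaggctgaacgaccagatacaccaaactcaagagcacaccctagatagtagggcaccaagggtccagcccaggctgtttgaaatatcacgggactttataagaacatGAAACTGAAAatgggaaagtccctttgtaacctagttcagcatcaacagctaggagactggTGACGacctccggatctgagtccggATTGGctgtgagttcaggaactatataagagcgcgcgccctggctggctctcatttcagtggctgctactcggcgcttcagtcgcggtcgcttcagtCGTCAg
H2-K1 (chr17:34000298-34000597, minus strand): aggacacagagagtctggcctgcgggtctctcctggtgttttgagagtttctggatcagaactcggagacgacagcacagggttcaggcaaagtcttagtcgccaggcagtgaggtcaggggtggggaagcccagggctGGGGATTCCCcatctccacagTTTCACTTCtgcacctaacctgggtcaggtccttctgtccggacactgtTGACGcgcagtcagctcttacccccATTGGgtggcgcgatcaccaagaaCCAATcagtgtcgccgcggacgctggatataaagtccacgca
H2-D1 (chr17:35262844-35263143, plus strand): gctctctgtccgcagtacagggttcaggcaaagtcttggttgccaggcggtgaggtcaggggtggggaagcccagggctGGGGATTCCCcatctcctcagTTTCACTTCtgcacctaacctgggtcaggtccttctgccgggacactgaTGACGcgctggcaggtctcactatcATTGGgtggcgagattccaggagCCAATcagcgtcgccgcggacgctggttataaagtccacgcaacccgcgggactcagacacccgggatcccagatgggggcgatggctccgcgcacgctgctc
Tap1 (chr17:34187306-34187605, plus strand): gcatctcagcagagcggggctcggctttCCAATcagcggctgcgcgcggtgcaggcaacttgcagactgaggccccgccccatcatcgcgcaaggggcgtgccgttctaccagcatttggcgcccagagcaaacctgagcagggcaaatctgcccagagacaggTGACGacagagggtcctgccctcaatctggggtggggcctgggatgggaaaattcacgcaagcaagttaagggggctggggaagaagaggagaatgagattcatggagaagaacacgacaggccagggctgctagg
Psmb9 (chr17:34187281-34187580, minus strand): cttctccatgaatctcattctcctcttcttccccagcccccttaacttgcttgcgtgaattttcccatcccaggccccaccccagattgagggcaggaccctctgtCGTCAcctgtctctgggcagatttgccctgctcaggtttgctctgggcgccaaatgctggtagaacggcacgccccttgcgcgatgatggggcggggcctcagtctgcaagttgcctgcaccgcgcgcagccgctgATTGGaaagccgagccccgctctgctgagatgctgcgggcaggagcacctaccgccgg

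All motifs were searched on both strands. CCAAT was found in 6 of the 8 windows, against 37.4% of 32817 promoter windows of the same length. TGACG was found in 5 of the 8, against 20.8%, and both strings together in 5 of the 8, against 7.71%. The core of the interferon-stimulated response element was found in 2 of the 8 (B2m and Erap1), against 3.43%, and a loose NF-kappaB core in 5 of the 8, against 50.8%. After the sequences had been seen, 2 further strings were added: GAANNGAAA occurred in the windows of H2-K1 and H2-D1 (7.52% of all windows) and the class I kappaB site, each match of which is also a match of the loose NF-kappaB core, in the same pair (0.107%). These windows are not independent of each other. H2-K1 and H2-D1 shared 88.3% of 239 aligned bases, and the windows of Tap1 and Psmb9 cover the same 275 bases on opposite strands. A match is a description of the letters only, and it was not tested whether any factor binds there.

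Total counts ran from 17998216 to 21003496 per library, so that 3 counts, the smallest level read here, came to between 0.141 and 0.169 CPM. The CPM scale sets counts against a common library total, after scaling by TMM, a trimmed mean of ratios between libraries. The labelled cell type was checked with Foxp3, Il2ra, Ctla4, Ikzf2, Cd4 and Cd3e, which had counts in every library and summed to 2999 to 3477 CPM in WT and 2767 to 3119 CPM in Exon2KO. Il2ra, Ctla4 and Ikzf2 were called lower in Exon2KO, by -0.52, -0.85 and -0.66 on the log2 scale (adjusted p = 0.0429, 0.00677 and 0.024 with edgeR). Their part in the results on class I genes was not tested. Foxp3 itself stood at 712 ± 96.5 CPM in WT and 812 ± 121 CPM in Exon2KO (SD, n = 3 each); counts are per gene, so they say nothing of the deleted exon. Both libraries numbered 20 stand apart from the others in interferon-stimulated genes, which is taken up after the genotype comparison, and in other genes. Of 4 tested erythroid markers 3 were called for the number, with a list median of -1.57 in WT and -2.86 in Exon2KO for library 20 minus the mean of 2 and 6. So were 2 of 6 CD8 T and NK cell markers, 3 of 6 Treg markers and 1 of 9 myeloid and dendritic cell markers, beside 10.4% of all tested genes. The erythroid markers summed to 5.4 to 17.4 CPM in WT and 3.49 to 13.7 CPM in Exon2KO.

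H2-K1, H2-D1 and B2m were among the most abundant transcripts of these cells. Of all counts, the 10 genes together took 1.45%, 1.47% and 1.45% in the WT libraries 2, 6 and 20. In the Exon2KO libraries of the same numbers the shares were 1.35%, 1.36% and 1.36%. All 3 Exon2KO shares were below all 3 WT shares, by a small margin. On the TMM-scaled library sizes that all other levels use, the log2 difference of the mean shares was -0.068 in place of -0.10, and the groups still did not overlap. H2-K1, H2-D1 and B2m, which hold most of these counts, took 1.2% ± 0.020 in WT and 1.11% ± 0.010 in Exon2KO of the raw totals (SD, n = 3 each). The 7 other genes together took 0.253% ± 0.0058 and 0.246% ± 0.011 (SD, n = 3 each), and their groups overlapped. The split into these 3 genes and the 7 others was made after the values were seen, so its shares are descriptions only. For the raw share of all 10 genes an exact permutation test gave p = 0.1 (adjusted p = 0.15 over this share and those of the split). That is the smallest p possible with 3 libraries per genotype, so the test cannot decide whether this share differs. The 10 genes were also chosen with earlier results of these data known.

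Per gene, no change between the genotypes was detected in any of the 10. None was called with edgeR's quasi-likelihood test at an adjusted p under 0.05, where 2.33% of all tested genes were called (348 of 14919), and none had an unadjusted p under 0.05, beside 12.1% of all tested genes. DESeq2 called 660 genes in all and limma-voom 289, and neither called any of the 10. Their log2 fold changes, Exon2KO minus WT, ran from -0.12 for B2m to 0.055 for Psmb8. The median was -0.026 beside 0.0084 over all tested genes. Of the 10, 8 were negative (9 with no scaling factor), beside 7193 of all 14919 tested genes. The 95% intervals of the 10 differences together reached from -20.4% (B2m) to 18.1% (Nlrc5), and the narrowest, that of Psmb9, ran from -10.5% to 9.73%. Each column number occurs once in each of the 2 genotypes. With the number as a replicate block the edgeR values ran from -0.12 to 0.053 (adjusted p from 0.371 to 0.95). Still none of the 10 was called, where 9.72% of all tested genes were. None had an unadjusted p under 0.05 there, beside 21.5% of all tested genes.

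**Figure D1:**
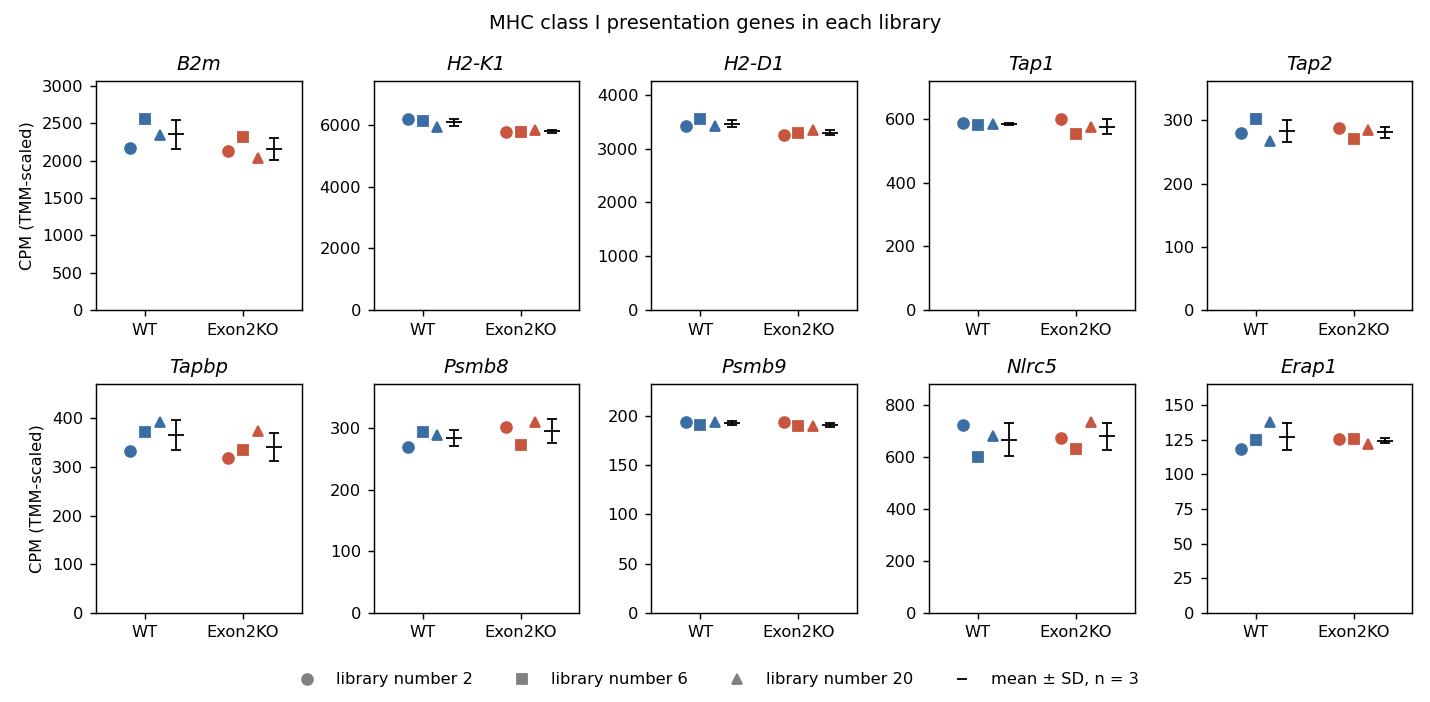
Levels of the 10 genes in each library, as CPM on the TMM-scaled library size (vertical axes start at 0); marker shapes give the library number, and the black mark with its bar is the mean ± SD of 3 libraries. Only for H2-K1 and H2-D1 are all Exon2KO libraries below all WT libraries, and the margin is small beside the level.

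Heavy chains and their light chain come first. H2-K1 (ENSMUSG00000061232, chromosome 17, 33996017 to 34000347) encodes one of the classical heavy chains that present peptide. It had 6188, 6122 and 5951 CPM in WT 2, 6 and 20, and 5785, 5765 and 5850 CPM in Exon2KO 2, 6 and 20. The Exon2KO libraries were all lower, and the lowest WT and the highest Exon2KO library differed by little. The log2 fold change was -0.070 (SE 0.076, with adjusted p = 0.838 in edgeR). H2-D1 (ENSMUSG00000073411, chromosome 17, 35262730 to 35267499), the other classical heavy chain examined, had 3427, 3547 and 3428 CPM in WT and 3259, 3291 and 3346 CPM in Exon2KO. Its groups did not overlap either, with a log2 fold change of -0.072 (SE 0.075, with adjusted p = 0.828 in edgeR). H2-K1 stood at 6087 ± 122 CPM in WT and 5800 ± 44.6 CPM in Exon2KO (SD, n = 3 each). For H2-D1 these were 3467 ± 69.2 and 3299 ± 44.4 CPM. For both genes the SE of edgeR was wider than these replicates would give, since edgeR shares information on spread between genes. Their adjusted p-values therefore do not rest on the genes' own spread alone. Groups without overlap were found for 2 of the 10 genes and for 17.7% of all tested genes. The ratio of H2-K1 to H2-D1 stayed between 1.51 and 1.59 in all 6 libraries (CPM per kilobase of gene length), or 2.24 to 2.34 with the length of the main coding transcript.

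B2m (ENSMUSG00000060802) encodes beta-2 microglobulin, the light chain that binds class I heavy chains. It had 2161, 2552 and 2336 CPM in WT 2, 6 and 20, and 2121, 2321 and 2036 CPM in Exon2KO. Library 6 was the highest in both genotypes and the groups overlapped. Its log2 fold change of -0.12 (SE 0.092, with adjusted p = 0.728 in edgeR) was the largest in size of the 10 with all libraries, and within each pair of equal number Exon2KO was lower, by -0.028, -0.14 and -0.20 on the log2 scale. It moved to -0.056 without WT 6, to -0.19 without Exon2KO 6 and to -0.086 without Exon2KO 20, and it was not the largest in size without WT 6, without Exon2KO 20 or without both libraries numbered 20, where it stood at -0.087 and Tapbp at -0.11. In bulk libraries, fewer cells of a type and less RNA per cell cannot be told apart, and B cells also carry class I molecules at high levels. The summed level of 7 B cell markers was 39.1 to 45.1 CPM in WT and 32 to 34.3 CPM in Exon2KO; 6 of the 7 had counts in every library and none was at 0 throughout. The largest contribution was Cd79b, at 20.5 to 22.9 CPM in WT and 14.0 to 16.9 CPM in Exon2KO, while the list's median log2 fold change was 0.059. The 10 myeloid and dendritic cell markers, all with counts in every library, summed to 36.0 to 50.1 CPM in WT and 28.6 to 45 CPM in Exon2KO, and 8 of the 9 tested had a negative log2 fold change (median -0.28). The 6 stromal and endothelial markers summed to 165 to 191 CPM in WT and 189 to 225 CPM in Exon2KO; 3 had counts in every library, and Col3a1 was at 0 in all. Of the 3 tested, 2 had a negative log2 fold change (median -1.20), so the list and its sum differ in direction. The 6 CD8 T and NK cell markers summed to 20.2 to 22.1 CPM and 21.9 to 35.0 CPM, with 3 positive and 3 negative log2 fold changes (median -0.047). These 4 lists had 6, 9, 3 and 6 tested genes, in the order given. None of those genes was called between genotypes without the block, beside 2.33% of all tested genes. With the block Cd79b (-0.51), Lyz2 (-0.40) and Zbtb46 (-1.05) were called lower and Pecam1 (0.23) higher, with adjusted p from 0.00501 to 0.0413 in edgeR. In that fit 5.79% of all tested genes were called lower and 3.93% higher. The part of these markers in the small differences of H2-K1, H2-D1 and B2m was not tested.

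Some sequence is shared between genes. Of the stretches of 50 bases in the main coding transcript of H2-K1, 8.79% occurred in a transcript of another gene, mostly H2-D1. For H2-D1 the share was 14.3%, and in stretches of 100 bases it was 0% for H2-K1 and 4.64% for H2-D1. Tapbp shared 21% and 14% at these lengths, Erap1 14% and 13.3%, Psmb9 12.5% and 9.02%, and Tap2 12.6% and 5.35%, mostly with genes that overlap them. B2m and Nlrc5 shared no stretch of 50 bases with another gene. The read length is not given in the sources used here.

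Psmb8 and Psmb9 encode inducible catalytic subunits that turn the standard proteasome into the immunoproteasome. Psmb8 (ENSMUSG00000024338, chromosome 17, 34197721 to 34201454) had 271, 294 and 289 CPM in WT 2, 6 and 20, and 303, 273 and 311 CPM in Exon2KO. The order of the genotypes differed between library numbers, and the log2 fold change was 0.055 (SE 0.079, with adjusted p = 0.891 in edgeR). Without single libraries the log2 fold change of Psmb8 ran from 0.013 to 0.098. Psmb9 (ENSMUSG00000096727, chromosome 17, 34181987 to 34187764) had 193, 190 and 194 CPM in WT and 193, 190 and 189 CPM in Exon2KO. It was the steadiest of the 10 genes, with a coefficient of variation of 1.10% over the 6 libraries and a log2 fold change of -0.013 (SE 0.066, with adjusted p = 0.975 in edgeR). Among the 2379 tested genes with a mean of at least 100 CPM, the median coefficient of variation was 7.93% and the 10th percentile 4.15%. Among the 10 genes it reached from 1.10% to 8.35% (Tapbp). Psmb9 had 3363 to 4133 counts per library, where counting error alone is expected to give a spread no smaller than the 1.10% seen. Its low value therefore says nothing of how tightly the gene is controlled. The SE that edgeR gave Psmb9 was wider than its own replicates would give, because edgeR shares information on spread between genes.

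The inducible subunits each take the place of a constitutive one, so their ratios were compared per length (log2 ratio of CPM per kilobase). Psmb10, the gene of the remaining inducible subunit, was added for this. The log2 ratio of Psmb10 to Psmb7 was 2.52, 2.46 and 2.28 in WT 2, 6 and 20, and 2.68, 2.64 and 2.76 in Exon2KO. All Exon2KO values were above all WT values, with a difference of 0.28 (exact permutation p = 0.1, two-sided and the smallest possible; adjusted p = 0.3 over 3 ratios). For Psmb8 to Psmb5 the means were 0.38 ± 0.061 in WT and 0.55 ± 0.12 in Exon2KO (SD, n = 3 each; exact permutation p = 0.2, adjusted p = 0.3). For Psmb9 to Psmb6 they were 0.38 ± 0.091 and 0.39 ± 0.10 (SD, n = 3 each; exact permutation p = 1). The groups of both these ratios overlapped. A ratio also moves with its constitutive gene. Psmb10 itself had a log2 fold change of 0.12, less than the difference of its ratio to Psmb7. Psmb8 had 0.055 and Psmb5 -0.13, and none of these 3 genes was called with edgeR. Within pairs of equal number, Psmb8 to Psmb5 was higher in Exon2KO in 3 of 3 pairs and Psmb9 to Psmb6 in 2 of 3. Psmb5 shares 57.1% and Psmb7 28.1% of their stretches of 50 bases with other annotated transcripts, so the levels of those ratios are uncertain. The level also depends on the length used: as folds, Psmb10 to Psmb7 ran from 4.84 to 6.79 with the gene length and from 2.13 to 2.99 with the main coding transcript, and Psmb8 to Psmb5 from 1.24 to 1.59 and from 2.57 to 3.29. For Psmb9 to Psmb6 the folds were 1.22 to 1.42 and 1.41 to 1.64. The differences between genotypes on the log2 scale do not depend on the length.

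**Figure D2:**
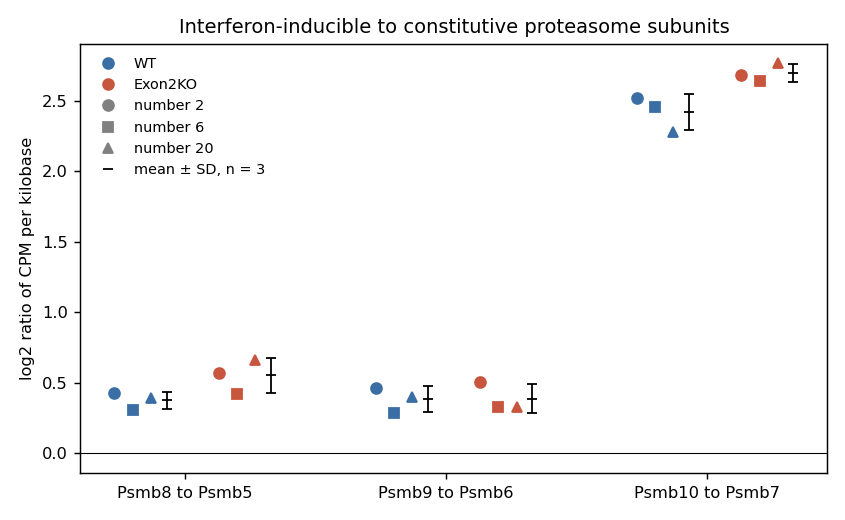
Log2 ratio of CPM per kilobase of each inducible proteasome subunit gene to the constitutive subunit gene it replaces; colours give the genotype, shapes the library number, and the black mark with its bar is the mean ± SD of 3 libraries. The genotypes are separate for Psmb10 to Psmb7 (2.28 to 2.52 in WT, 2.64 to 2.76 in Exon2KO) and overlap for the other ratios.

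Tap1 and Tap2 encode the subunits of the peptide transporter, and Tapbp encodes tapasin, which holds an empty class I molecule at that transporter. Tap1 (ENSMUSG00000037321, chromosome 17, 34187553 to 34197225) had 586, 579 and 584 CPM in WT 2, 6 and 20, and 598, 553 and 574 CPM in Exon2KO. The WT libraries lay inside the range of the Exon2KO libraries, and the log2 fold change was -0.020 (SE 0.071, with adjusted p = 0.962 in edgeR). Tap2 (ENSMUSG00000024339, chromosome 17, 34203527 to 34216321) had 281, 302 and 268 CPM in WT and 288, 271 and 284 CPM in Exon2KO, again overlapping, with a log2 fold change of -0.012 (SE 0.075, with adjusted p = 0.979 in edgeR). Tap1 exceeded Tap2 per length in every library, by 1.32 to 1.5 times in CPM per kilobase, or by 2.23 to 2.54 times with the length of the main coding transcript. Tapbp (ENSMUSG00000024308, chromosome 17, 33915899 to 33929292) had 333, 371 and 393 CPM in WT and 318, 334 and 374 CPM in Exon2KO. In each genotype library 2 was lowest and library 20 highest, and each Exon2KO library was below the WT library of the same number. Its log2 fold change was -0.097 (SE 0.092, with adjusted p = 0.809 in edgeR), and it ran from -0.17 to -0.042 without single libraries.

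Tap1 and Psmb9 start from the shared promoter printed above and run in opposite directions. They overlap by annotation, as do Tapbp and Zbtb22 on the same strand and Erap1 and Cast on opposite strands. The sources used here do not state that strand was used in counting, so reads of overlapping stretches are uncertain. Cast had 29950 counts over all libraries against 14298 for Erap1, and its log2 fold change was 0.13. Zbtb22 had 4728 counts against 40189 for Tapbp, and its log2 fold change was 0.082.

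Erap1 encodes the aminopeptidase that trims peptides in the endoplasmic reticulum. It had 118, 125 and 138 CPM in WT 2, 6 and 20, and 126, 125 and 122 CPM in Exon2KO. The Exon2KO libraries fell inside the WT range, and the log2 fold change was -0.033 (SE 0.078, with adjusted p = 0.946 in edgeR). Nlrc5 (ENSMUSG00000074151), the transactivator of class I promoters, had 721, 599 and 680 CPM in WT and 673, 632 and 735 CPM in Exon2KO. Library 6 was lowest in both genotypes, the groups overlapped, and the log2 fold change was 0.028 (SE 0.095, with adjusted p = 0.96 in edgeR).

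**Figure D3:**
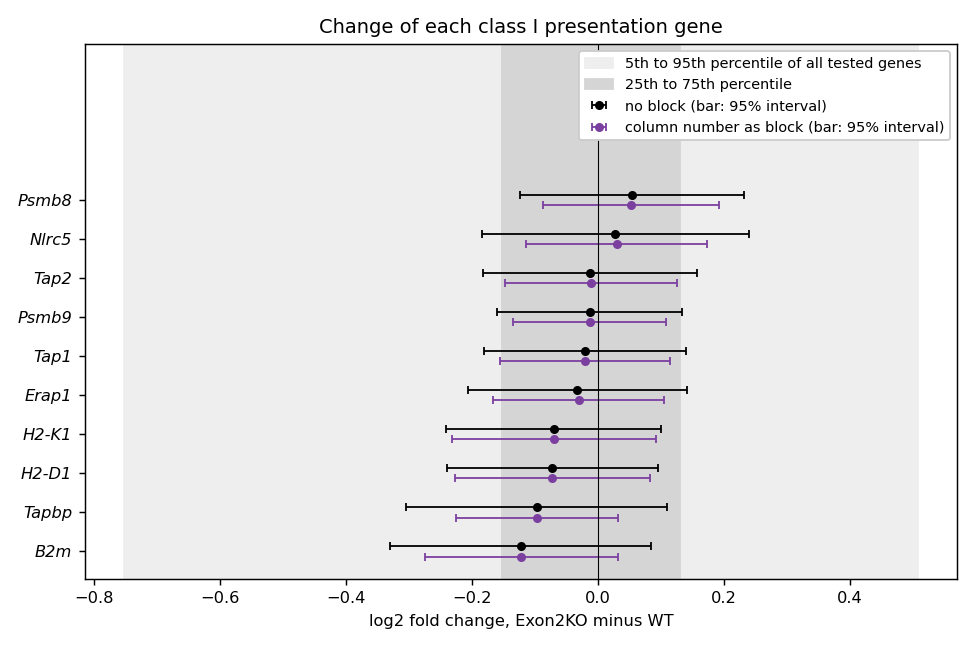
Log2 fold change, Exon2KO minus WT, of each gene with its 95% interval (edgeR, 3 libraries per genotype), without a block in black and with the column number as a block in purple; shaded bands give the 5th to 95th (-0.75 to 0.51) and 25th to 75th (-0.15 to 0.13) percentiles of all 14919 tested genes. Every interval of the 10 genes includes 0, and every point estimate lies inside the inner band.

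The authors' deposited table gives log2 fold changes between -0.12 and 0.056 for the 10 genes, with adjusted p-values from 0.92 to 0.999.

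Levels were compared between genes per length only, as CPM per kilobase of gene length over the 6 libraries (mean ± SD, n = 6). B2m was highest at 2621 ± 217, followed by H2-K1 at 2023 ± 60.4 and H2-D1 at 1312 ± 41.1, and these ranked 4, 6 and 15 among the 55840 genes. Tap1 (106 ± 2.78), Tapbp (97.5 ± 8.14), Psmb8 (85.8 ± 4.71), Nlrc5 (79.3 ± 6.09) and Tap2 (74.7 ± 3.23) came next, and each neighbouring pair in this order overlapped over the libraries. Psmb9 (52.4 ± 0.575) and Erap1 (17.3 ± 0.903) stood below them without overlap. Gene length in the deposited table is the union of all annotated exons, which is longer than the main messenger RNA for every one of the 10 except B2m. With the length of the transcript that has the longest coding sequence, H2-K1 (3671 CPM per kilobase) came above B2m (2621) and H2-D1 (1609), and Psmb9 (142) came above Tapbp (122), so the order of such neighbours depends on the length used. The summed CPM per kilobase of H2-K1 and H2-D1 over that of B2m lay between 1.17 and 1.39 with overlapping genotypes, and between 1.84 and 2.2 with the coding transcript's length.

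To see how far the genes varied between libraries apart from the genotype, the 3 column numbers were compared in the blocked fit. None of the 10 genes was called for a difference between numbers with edgeR's quasi-likelihood test, where 10.4% of all tested genes were; 1 of the 10, Tapbp, had an unadjusted p under 0.05 beside 25.2% of all tested genes (adjusted p = 0.116). Tapbp was higher in library 20 than in the mean of 2 and 6 by 0.16 in WT and 0.20 in Exon2KO on the log2 scale. Of 30 interferon-stimulated genes on a list that holds no member, 23 were called for the number; 20 of these were higher in library 20 in both genotypes and 3 were lower. The median difference of library 20 from the mean of 2 and 6 was 0.63 in WT and 0.65 in Exon2KO for that list, and 0.0093 and 0.021 for the 10 class I genes. Whether the 2 lists differ was not tested.

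**Figure D4:**
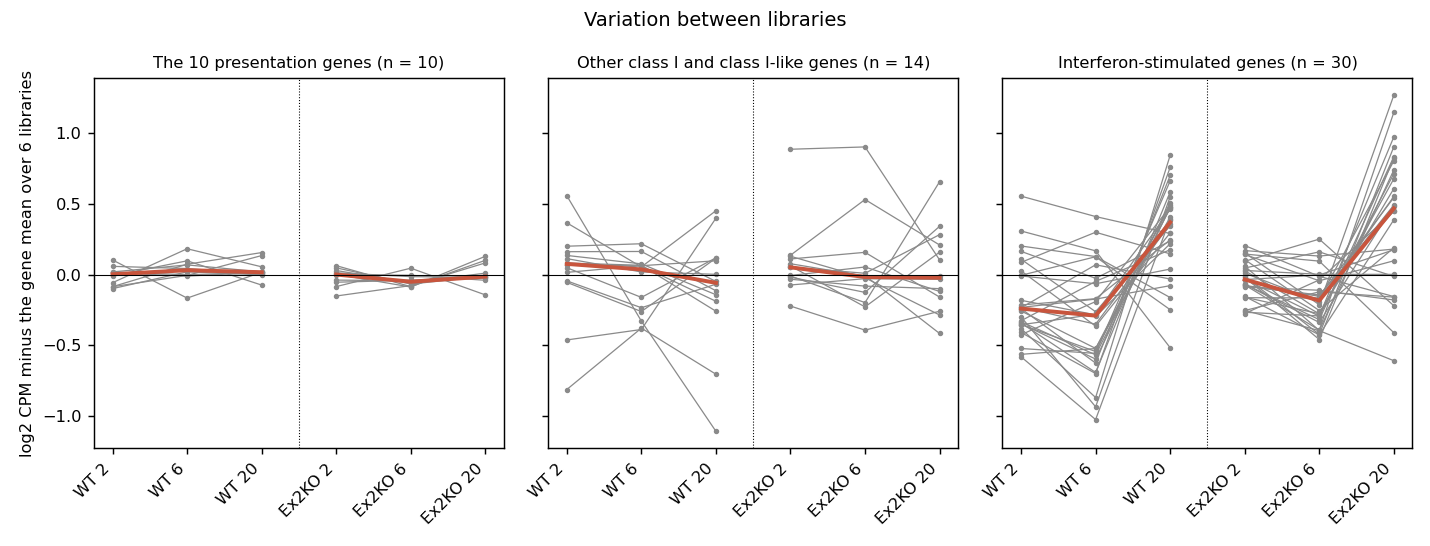
Log2 CPM of each gene (grey) minus its own mean over the 6 libraries, with the list median in red. Lines join the libraries of a genotype only to follow a gene, since the labels do not say whether library numbers have an order. The 10 presentation genes lie close to 0 in every library, while most interferon-stimulated genes are high in both libraries numbered 20.

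Some other class I heavy chains differed between library numbers. Of 18 listed class I heavy chains and class I-like molecules, 14 were tested, and 4 were called for the number, beside 10.4% of all tested genes: H2-T24, H2-T22 and H2-T23, nonclassical heavy chains of the T region, and H2-Q6 of the Q region. H2-T24 was higher in library 20 by 0.82 in WT and 0.76 in Exon2KO (edgeR adjusted p = 9.53e-06), H2-T22 by 0.27 and 0.41, and H2-T23, the mouse Qa-1 gene, by 0.17 and 0.24. H2-Q6 was lower there, by -0.26 and -0.44. The paralogs share much sequence: 36.8% of the stretches of 50 bases of H2-Q6 and 46.4% of those of H2-T22 occur in other genes.

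Between the genotypes, 1 of these 14 genes was called higher and none lower, beside 0.757% and 1.58% of all tested genes, and the list median was 0.016. For H2-Q2 the raw counts were 60, 79 and 74 in the WT libraries 2, 6 and 20 and 188, 206 and 108 in the Exon2KO libraries. All Exon2KO libraries were higher, at 9.03 ± 2.56 CPM against 3.68 ± 0.593 CPM (SD, n = 3 each), which is 1.29 more on the log2 scale (SE 0.26, with adjusted p = 0.0359 in edgeR). Per length H2-Q2 was far under H2-K1 and H2-D1, at a mean of 2.91 against 2023 and 1312 CPM per kilobase of gene length. The call of H2-Q2 was lost (adjusted p from 0.0811 to 0.178) without WT 2, WT 6, WT 20, Exon2KO 2 or Exon2KO 6 in turn, and under limma-voom (adjusted p = 0.0692). With the replicate block H2-T24 (0.30, edgeR adjusted p = 0.0114) and H2-T10 (0.23, edgeR adjusted p = 0.0313) were called higher as well, and H2-Q6 lower (-0.25, edgeR adjusted p = 0.0313); block calls took in 3.93% of all genes upward and 5.79% downward.

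Upstream regulators of class I transcription included both chains of the interferon gamma receptor, which moved in opposite directions. Of the 19 listed genes, all tested, 1 was called higher and 1 lower, beside 0.757% and 1.58% of all tested genes, with a list median of 0.078. With the block 3 were called higher and 1 lower, beside 3.93% and 5.79%. Ifngr1, the ligand-binding chain, had 208 ± 1.44 CPM in WT and 165 ± 6.55 CPM in Exon2KO (SD, n = 3 each) without overlap, and fell by 0.34 in log2 (SE 0.069, with adjusted p = 0.0382 in edgeR). Ifngr2, the chain that brings JAK2 to the receptor, rose by 0.50 in log2, with WT at 45.7 ± 5.07 and Exon2KO at 64.7 ± 4.01 CPM (SD, n = 3 each) (SE 0.099, with adjusted p = 0.0339 in edgeR). With the block both kept their calls (edgeR adjusted p = 0.00134 and 0.00021), and Jak2, the kinase of that receptor (0.27, edgeR adjusted p = 0.0203), and Nfya, a subunit of the CCAAT-binding factor NF-Y (1.32, edgeR adjusted p = 0.0177), were called higher too. Without the block, Ifngr1 lost its call when any single library was left out (adjusted p from 0.0884 to 0.124) and Ifngr2 when WT 2, WT 20, Exon2KO 2 or Exon2KO 6 was (up to 0.184). Irf1, an interferon-induced transcription factor (0.078), and the X box factor Rfx5 (-0.14) had edgeR adjusted p-values of 0.81 and 0.781.

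Interferon-stimulated genes had a median log2 fold change of 0.12 between genotypes, and 1 of 30 was called, beside 2.33% of all tested genes. Gbp3, a guanylate-binding protein gene, fell by 0.83 in log2, with WT at 124 ± 11.4 and Exon2KO at 69.8 ± 8.54 CPM (SD, n = 3 each) (SE 0.11, with adjusted p = 0.00475 in edgeR), and kept its call without any single library. With the block 11 of the 30 were called higher and 3 lower, beside 3.93% and 5.79% of all tested genes. Among these, by smallest p, Oas2 changed by 0.81, Ifit1 by 0.39, Ifit2 by 0.32 and Irf7 by 0.32, and Gbp2 by -0.36 and Gbp3 by -0.84 (edgeR adjusted p from 5.06e-07 to 0.00427). None of the 10 class I presentation genes was called in the same fit.

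The remaining genes of the route gave few calls. None of 14 constitutive proteasome genes (median -0.031), none of 7 chaperones and editing factors of the endoplasmic reticulum (median -0.056), none of 4 further genes of the immunoproteasome and its activator (median 0.059) and none of 6 tested cytosolic and other peptidases (median -0.11) was called between genotypes, beside 2.33% of all tested genes, so that no call among so few genes is near the background. With edgeR, 3 of these genes had an unadjusted p under 0.05, beside 12.1% of all genes. DESeq2 called 4 of all 64 tested pathway genes outside the 10, beside 660 genes in all. The edgeR fit called 3 of the 64, beside 2.33% of all tested genes. Under the block Thop1, a cytosolic peptidase that destroys peptides, was called lower (-0.39, edgeR adjusted p = 0.0374), beside 5.79% of all tested genes. Calr and Hspa5, chaperones of the endoplasmic reticulum, were higher in library 20 by 0.51 and 0.52 in WT and by 0.45 and 0.57 in Exon2KO, and Bcap31 by 0.26 and 0.32. These 3 of the 7 chaperones and editing factors were called for the number, beside 10.4% of all tested genes.

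Genes whose profile over the 6 libraries lay closest to the mean profile of the 10 were Dcaf5, Eif4h, Mdh2, Sf3b2 and Cops6. Their centred log2 CPM differed from that mean profile by a root mean square of 0.015 to 0.020 over 6 libraries, the smallest among 9356 protein-coding genes with a mean of at least 5 CPM. The mean profile itself ran only from -0.043 (Exon2KO 6) to 0.034 (WT 20). Each of the 10 genes lay farther from it, from 0.027 (H2-D1) to 0.11 (Nlrc5).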

How the data were processed

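RNA was isolated with an RNeasy kit and made into NEBNext Ultra libraries, per the labels' protocols. The submitters' processing notes name HISAT2 2.0.5, StringTie 1.3.3b, featureCounts 1.5.0-p3, DESeq2 1.16.1 and the build mm10. Per the file headers, the authors deposited whole-number counts for each gene and library. Their table also holds group means of scaled count signal (not used) and, for the genotype comparison, log2 ratios with raw and adjusted p-values as deposited. A further 6 per-sample columns were not used; levels per length, planned from deposited FPKM, were computed here as CPM over gene length instead. Of the 55840 identifiers, 55304 have the same coordinates in GENCODE mouse release 21 (GRCm38).

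Counts were tested with edgeR 4.0.16 in R 4.3.3: filterByExpr, TMM scaling, robust quasi-likelihood fit, two-sided, no covariate, Benjamini-Hochberg over 14919 genes, called at an adjusted p under 0.05. The SE is the log2 fold change over the square root of the F statistic. CPM use the TMM-scaled library size. Column numbers fit no titled replicate number, so columns were assigned to genotypes only. Same-numbered libraries deviated together across genes (correlations 0.373, 0.43 and 0.56, log2 of CPM plus 1), so the number counts as a pairing and served as a block. No pair of replicate libraries agreed within sampling noise (chi-square per degree of freedom from 8.12 to 23.6), and though titles call them biological replicates, separate animals are not stated, so p-values measure the spread between these libraries. Counting limits cover counting error only.

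The 10 genes and all lists were chosen with earlier results of these data known. All 10 are named; of the other pathway lists and the interferon list, genes called in either fit are named, at most 6 a list, other names being chosen after their values were seen. Shared stretches were counted in GENCODE 21 transcripts on both strands. Scripts were tested on simulated data. Alternatives were other filters, scalings, DESeq2 1.42.0, limma 3.58.1 voom, the block, and leaving out libraries.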

Additional observations from a re-analysis of the deposited data

How the results depend on the processing

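None of the 10 class I genes was called under any of the 18 alternatives to the edgeR fit. Those fits called 86 to 1450 genes in all, so that no call among 10 genes is near the background. The log2 fold changes of the 10 stayed between -0.19 and 0.098 in those fits. The sign was not stable for Tap2, Nlrc5 and Erap1, and the 7 others kept theirs: Nlrc5 turned to -0.018 and Erap1 to 0.041 without both libraries numbered 20, and leaving out single libraries gave -0.052 to 0.038 for Tap2, -0.041 to 0.085 for Nlrc5 and -0.085 to 0.029 for Erap1. The cause was not tested. With no scaling factor the median of the 10 moved to -0.061 and Nlrc5 to -0.0069, but the median of all genes moved by -0.035 and that of the 10 by -0.035 too, so this is a common offset. Over single libraries left out the median of the 10 ran from -0.048 to -0.030.

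The 348 called genes became 617 without a count filter, 660 with DESeq2, 1450 with the replicate block, 1034 with the block in DESeq2, and 86 to 314 without single libraries. The 3 called pathway genes outside the 10 became 9 with the block, 7 with the block in DESeq2, and 0 to 2 without single libraries. Genes called for the number rose from 1559 to 2530 without a count filter. Among named genes, Nfya (edgeR adjusted p = 0.0936) also passed with DESeq2 (0.00112), without a filter (0.0358) and without Exon2KO 6 (0.0106). Gbp2 (0.0585) also passed with DESeq2 (0.0106), without a filter (0.0123), with at least 10 counts in every library (0.0488), with upper-quartile scaling (0.0404) and with no scaling factor (0.0358), and both passed with the block.

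The Psmb9 to Psmb6 difference ran from -0.055 to 0.044 without single libraries. For the 3 ratios the replicate block cannot change the difference, since each pair is complete, and a sign-flip test over 3 pairs cannot go under 0.25. The blocked fit changed no call among the 10. With no scaling factor 98 genes were called higher and 267 lower, against 113 and 235. No result met the rules for a closer look, since groups of 3 are not tested for outliers. At these depths each of the 10 genes had at least 2173 counts in every library.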
